A study of Mus musculus with 12 samples.

Results

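The effect of AhR deletion on unstimulated type II alveolar epithelial (AT2) cells was examined in 6 of the 12 RNA-seq libraries of the study. They were the 3 PBS libraries of Sftpc-Cre;AhRf/f cells and the 3 PBS libraries of AhRf/f cells, chosen by their labels, and all genes were compared. Both lines carried floxed AhR alleles on a C57BL/6 background, and the mice of the study were 6 to 8 weeks old. The AhRf/f mice had no Cre, so their gene was left intact. Any effect of Cre itself, or of other inherited differences between the lines, cannot be told apart from that of the deletion. In Sftpc-Cre;AhRf/f mice, Cre recombinase was expressed from the promoter of Sftpc, the surfactant protein C gene that marks AT2 cells. AT2 cells were isolated from Dispase-digested lungs by negative selection, with antibodies to leukocyte and erythroid surface proteins among those used. They were plated on collagen I and kept for 24 h without the cockroach extract (CRE). The other 6 libraries came from the same 2 genotypes treated with CRE at 50 µg/ml for 24 h and were used here to estimate the spread in the common fit and as a second measurement of the genotype difference. Whether the libraries of a group came from separate mice is not stated, so the p-values measure the spread between these libraries, which may be partly technical.

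AhR is a transcription factor that is held in the cytoplasm by chaperones until a ligand binds it. It then enters the nucleus, pairs with ARNT and binds xenobiotic response elements, whose core letters are GCGTG. Its best known targets are the cytochrome P450 enzymes of the Cyp1 family and other enzymes of foreign compound metabolism, together with Ahrr and Tiparp, which limit the receptor's own activity. AT2 cells make surfactant and serve as progenitors of the alveolar epithelium.

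The 6 libraries held between 68878065 and 80935797 counts, and 20612 genes passed the filter on low counts. Expression is given as CPM, counts scaled to an equal library total after TMM normalization. Where a gene is listed at 0, counting error alone allows 3 counts, which are 0.0365 to 0.0446 CPM. The libraries numbered 1 stood apart in both genotypes. On the first principal component of all 12 libraries, which held 24.9% of the variance, AhRf/f PBS1 lay at 71.3 and Sftpc-Cre;AhRf/f PBS1 at 59.3, and the other PBS libraries lay between -72.9 and -2.91. The same 2 libraries had the highest summed CPM of 14 leukocyte markers, 485 and 368, against 25.3 to 120 in the others. Sftpc, the defining AT2 marker, was at 6016, 6217 and 5476 CPM in AhRf/f cells and at 3086, 4591 and 6183 CPM in Sftpc-Cre;AhRf/f cells. It was therefore abundant in every library, and the groups overlapped.

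The targeted gene was looked at first. Ahr (ENSMUSG00000019256, GRCm38 chromosome 12, 35497974 to 35535038, minus strand) stood at 42.9, 43.8 and 45.1 CPM in AhRf/f cells and at 49.6, 40.2 and 45.7 CPM in Sftpc-Cre;AhRf/f cells. The libraries of the 2 genotypes overlapped, and the log2 fold change was 0.04 (SE 0.12, exact two-sided permutation p = 0.7, where 3 libraries against 3 cannot give less than 0.1). The sign of this value turned to -0.03 without Sftpc-Cre;AhRf/f PBS1. A gene count covers all exons, so the loss of a floxed part of the gene cannot be read from it, and the total count gives no check of the labels. The study itself reports AhR deficiency by RT-PCR in isolated AT2 cells and AhR deletion by co-immunostaining in lung tissue.

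Of the 20612 genes tested, 31 (0.150%) differed between the genotypes at a Benjamini-Hochberg adjusted p below 0.05 in edgeR's quasi-likelihood test. In Sftpc-Cre;AhRf/f cells 21 were lower (0.102% of the genes tested) and 10 were higher (0.0485%). The lower genes with the smallest adjusted p were Acp1, Arl6ip5, Dynlt1b, Cyp1b1, Gpc1 and Ces1g, and those with the largest fitted changes and counts in both genotypes were Cyp1b1, Ces1g and Selenbp1. The higher ones included Abca5, Adi1, Ide, Serpinb2 and Scel. In all 31 genes each library of one genotype was above each of the other, which was so for 14.0% of all genes tested (6.60% higher and 7.38% lower). The smallest edgeR adjusted p was 4.9e-04. With DESeq2, 234 genes passed, 93 higher and 141 lower, and they held all 31. Below, called refers to the edgeR test unless another tool is named. Fitted to the 6 PBS libraries alone, without the spread of the CRE libraries, 15 genes were called, and 9 of them were among the 31 (Acp1, Arl6ip5, Abca5, Dynlt1b, Cyp1b1, Ces1g, Adi1, Selenbp1 and Rdh10). With same-numbered libraries as a replicate block, the number of calls depended on how the block was built: 71 with 1 number term over 12 libraries, 15 with a block within each treatment, and 0 within the 6 PBS libraries, where the smallest adjusted p was 0.0796. All 31 genes were among the 71, and all 31 kept their direction within the 6. The 15 held 12 of the 31, which were Acp1, Arl6ip5, Abca5, Dynlt1b, Cyp1b1, Gpc1, Ces1g, Adi1, Nqo1, Xdh, Gstp1 and Serpinb2, and the other 19 genes lost their call there, with adjusted p-values of 0.0521 to 0.361.

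**Figure D1:**
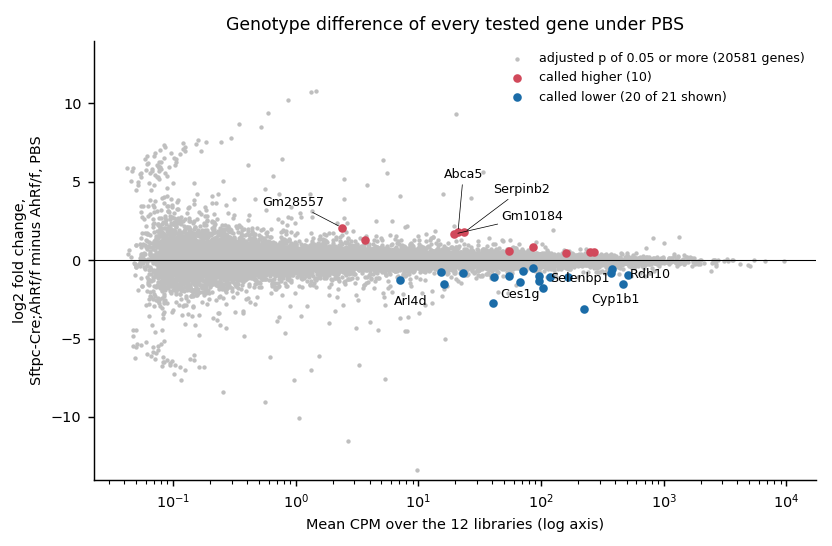
Log2 fold change between genotypes under PBS against mean CPM over the 12 libraries (log axis), 1 point per gene, with the 31 called genes coloured except C130046K22Rik, which had no count in Sftpc-Cre;AhRf/f cells. The called genes reach from -3.10 (Cyp1b1) to 2.08 (Gm28557), and low genes scatter more widely without being called.

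**Figure D2:**
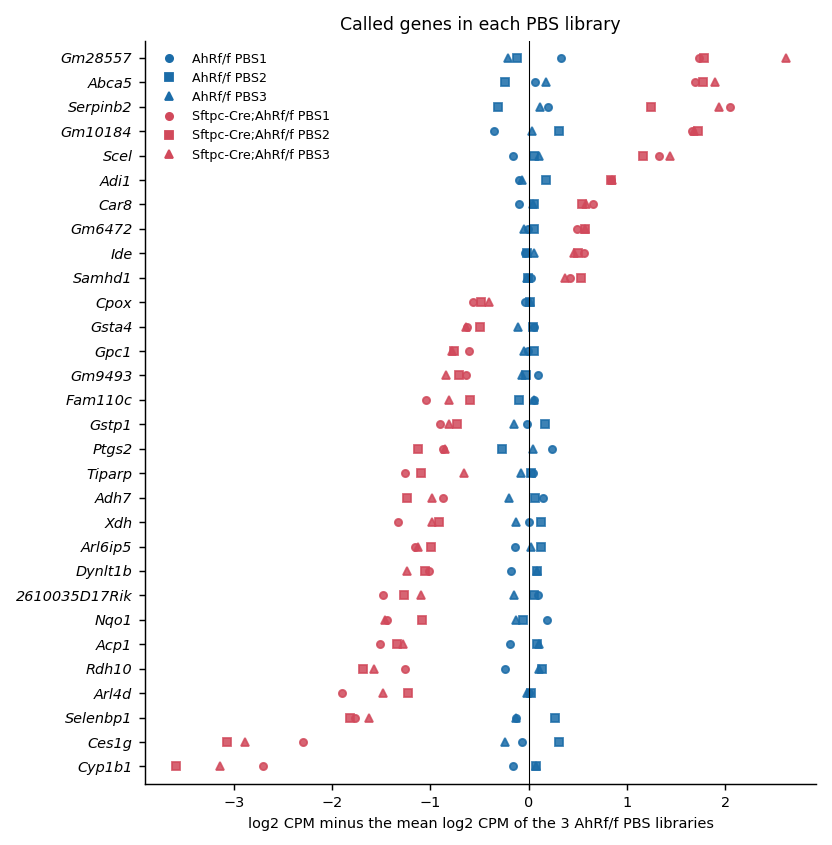
Log2 CPM of 30 called genes in each of the 6 PBS libraries, relative to the mean of the 3 AhRf/f libraries; colours mark genotypes and symbols mark replicate numbers. No gene has a red point among its blue points, and Cyp1b1 and Ces1g lie farthest to the left.

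Cyp1b1 had the largest decrease among the called genes with counts in both genotypes. This P450 enzyme (ENSMUSG00000024087, chromosome 17, 79701537 to 79715061, minus strand) oxidizes polycyclic hydrocarbons and steroids. It was measured at 344, 404 and 404 CPM in AhRf/f cells and at 59.0, 31.7 and 43.3 CPM in Sftpc-Cre;AhRf/f cells. Every Sftpc-Cre;AhRf/f library was far below every AhRf/f library, an 8.59-fold lower level (log2 fold change -3.10, SE 0.27, edgeR adjusted p = 8.8e-04). Nqo1, a quinone reductase induced by both AhR and NRF2, fell by 1.33 on the log2 scale (SE 0.13, edgeR adjusted p = 0.0016). Its levels were 122, 103 and 97.9 CPM against 39.4, 50.5 and 38.9 CPM, again far apart. Tiparp, a poly(ADP-ribose) polymerase that acts back on AhR, had 120, 118 and 110 CPM in AhRf/f cells against 48.6, 54.2 and 73.6 CPM in Sftpc-Cre;AhRf/f cells, with a log2 fold change of -0.98 (SE 0.15, edgeR adjusted p = 0.041). The groups stood apart, but this call was lost in every fit without 1 library except that without Sftpc-Cre;AhRf/f PBS3, with adjusted p-values from 0.0112 to 0.178.

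Beyond these 3, the AhR target list held 10 further genes that were tested, and edgeR called none in the main fit. Other tools did pass some of them. DESeq2 gave adjusted p-values of 0.0011 for Cyp1a1, 1.1e-06 for Aldh3a1 and 0.013 for Nfe2l2. With limma-trend, Aldh3a1 had an adjusted p of 0.048. Cyp1a1, the P450 most often used as a readout of AhR, was at 31.4, 21.1 and 19.8 CPM in AhRf/f cells and at 11.2, 6.43 and 5.11 CPM in Sftpc-Cre;AhRf/f cells. The groups did not overlap, yet the log2 fold change of -1.67 (SE 0.38) had an edgeR adjusted p of 0.193. With the replicate block it was 0.0026 with 1 number term, 0.029 within each treatment and 0.220 within the 6 PBS libraries. Aldh3a1, an aldehyde dehydrogenase, had 49.6, 91.3 and 65.9 CPM against 31.0, 15.3 and 21.6 CPM. Its log2 fold change was -1.61 (SE 0.27, edgeR adjusted p = 0.064), and it passed without Sftpc-Cre;AhRf/f PBS1 (adjusted p = 0.048). Ahrr, the AhR repressor, was at 4.10, 2.96 and 2.33 CPM against 1.76, 0.68 and 0.90 CPM, again without overlap and without a call (log2 fold change -1.49, edgeR adjusted p = 0.395). Nfe2l2, which encodes NRF2, had 388, 456 and 442 CPM against 310, 323 and 316 CPM, a log2 fold change of -0.44 with an edgeR adjusted p of 0.212. With the replicate block it was 0.037 with 1 number term, 0.212 within each treatment and 0.492 within the 6 PBS libraries. The conjugating enzymes Gsta1, Gsta2 and Ugt1a6a had log2 fold changes of -0.45, -0.35 and -0.52, and their groups did not overlap. In Ugt1a6b, Ugt1a7c and Cyp2s1 the groups overlapped. Ugt1a genes share 3′ exons and Gsta1 is nearly identical to 3 other genes, and reads may be split among these genes. Cyp1a2, the liver P450 of the family, had 0 counts in all 6 libraries.

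As a list, 13 of 14 AhR targets were tested, 3 were called lower and none higher. Of all genes tested 0.102% were called lower and 0.0485% higher. All 13 had a log2 fold change below 0, as did 50.1% of the genes tested. In 10 of the 13 the Sftpc-Cre;AhRf/f libraries lay below all AhRf/f libraries, against 7.38% of the genes tested. The median log2 fold change of the list was -0.52, and that of all genes tested was -0.0010. The list median ranged from -0.72 to -0.40 over the alternatives tried.

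**Figure D3:**
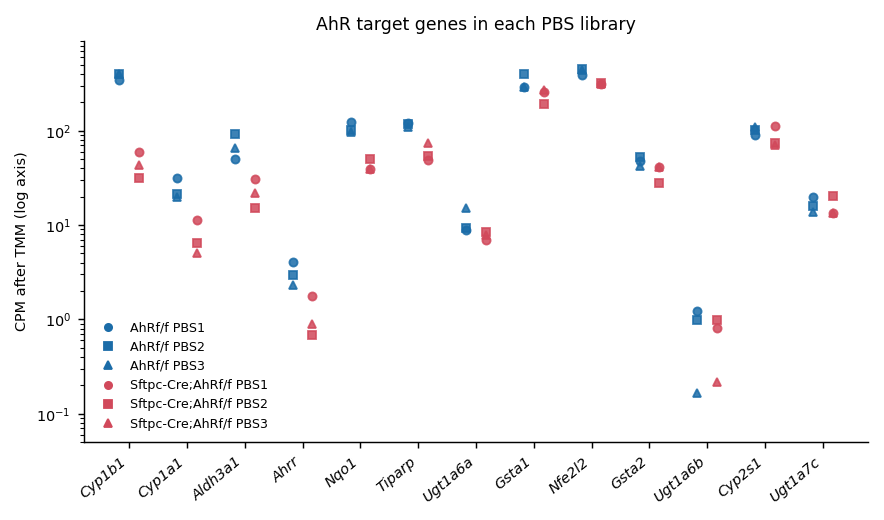
CPM (log axis) of the 13 tested AhR target genes in each PBS library, ordered by log2 fold change, with AhRf/f in blue and Sftpc-Cre;AhRf/f in red. The genotypes are separated from Cyp1b1 to Gsta2 and overlap in Ugt1a6b, Cyp2s1 and Ugt1a7c.

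The stretches upstream of 5 genes called lower are shown, 4 chosen because they hold the AhR core element and Nqo1 as an AhR target that has none there. They were taken from RefSeq promoters of GRCm38, cut to the bases before the first annotated transcript start, and are printed in the direction of transcription. Capitals mark GCGTG or its reverse complement CACGC. The Cyp1b1 stretch is chr17:79715062-79715311 (minus strand), that of Tiparp is chr3:65528197-65528409 (plus), that of Ptgs2 is chr1:150099781-150100030 (plus), that of Selenbp1 is chr3:94932833-94933055 (plus) and that of Nqo1 is chr8:107403207-107403455 (minus).
Cyp1b1: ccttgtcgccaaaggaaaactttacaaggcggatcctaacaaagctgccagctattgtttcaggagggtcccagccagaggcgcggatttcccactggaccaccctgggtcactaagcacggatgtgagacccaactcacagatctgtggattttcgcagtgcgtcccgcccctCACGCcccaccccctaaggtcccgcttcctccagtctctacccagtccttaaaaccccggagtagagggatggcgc
Tiparp: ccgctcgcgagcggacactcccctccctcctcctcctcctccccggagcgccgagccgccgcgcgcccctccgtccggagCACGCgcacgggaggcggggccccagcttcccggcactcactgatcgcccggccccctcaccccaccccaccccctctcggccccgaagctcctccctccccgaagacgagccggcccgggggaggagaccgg
Ptgs2: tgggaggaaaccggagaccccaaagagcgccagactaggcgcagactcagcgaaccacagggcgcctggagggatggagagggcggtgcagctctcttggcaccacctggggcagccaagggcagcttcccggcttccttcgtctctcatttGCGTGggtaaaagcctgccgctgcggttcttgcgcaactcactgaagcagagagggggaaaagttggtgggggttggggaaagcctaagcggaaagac
Selenbp1: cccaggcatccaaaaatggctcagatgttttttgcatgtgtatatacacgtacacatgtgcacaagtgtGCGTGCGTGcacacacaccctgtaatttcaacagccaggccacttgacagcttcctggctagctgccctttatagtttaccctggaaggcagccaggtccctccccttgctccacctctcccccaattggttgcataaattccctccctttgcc
Nqo1: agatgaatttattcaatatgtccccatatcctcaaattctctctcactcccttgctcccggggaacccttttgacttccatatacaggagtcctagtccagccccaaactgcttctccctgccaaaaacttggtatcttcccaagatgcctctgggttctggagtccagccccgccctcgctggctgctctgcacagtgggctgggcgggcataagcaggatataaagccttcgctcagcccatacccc
The first letter of the match lies 76 bases before the RefSeq start of Cyp1b1, 170 before that of Tiparp and 98 before that of Ptgs2. Selenbp1 has a pair of overlapping matches, 181 and 177 bases before its start. In whole windows of 300 bases (250 before and 50 after the start, both strands), GCGTG was present in 9 of the 14 promoters found for genes called lower and in 3 of the 6 for genes called higher. It was present in 46.1% of the 16609 promoters of genes tested and in 32.4% of all 32851 promoters. The longer form TNGCGTG, which contains the core, was in 2 of the 14, 0 of the 6 and 7.14% of the promoters of genes tested. Acp1, Ces1g, Nqo1 and both noncoding RNAs called lower, C130046K22Rik and 2610035D17Rik, had no core match in this window. A match is a description of letters, and promoters were found for only 19 of the 31 called genes.

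The machinery that holds, carries and limits the receptor had 1 call. Of 12 tested genes Tiparp alone passed, where 0.150% of all genes tested did. In 5 the log2 fold change was below 0, and the median was 0.03 (-0.016 to 0.060 over the alternatives). Arnt, the partner that AhR needs to bind DNA, was at 35.9, 30.8 and 34.2 CPM in AhRf/f cells and at 35.0, 36.9 and 34.3 CPM in Sftpc-Cre;AhRf/f cells. The 2 groups overlapped, with a log2 fold change of 0.07 (SE 0.12, edgeR adjusted p = 0.950).

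Among phase I enzymes, which oxidize or hydrolyze compounds, 2 of 42 tested genes were called, both lower. Of all genes tested 0.102% were called lower. Ces1g (ENSMUSG00000057074, chromosome 8, 93302369 to 93337308, minus strand) is a carboxylesterase that hydrolyzes lipid esters. It had 56.9, 73.7 and 50.4 CPM in AhRf/f cells against 12.1, 7.08 and 8.06 CPM in Sftpc-Cre;AhRf/f cells, a 6.63-fold lower level without overlap (log2 fold change -2.73, SE 0.24, edgeR adjusted p = 9.3e-04). Adh7, an alcohol dehydrogenase that also oxidizes retinol, had 58.4, 55.0 and 45.8 CPM against 28.8, 22.4 and 26.8 CPM. Its log2 fold change was -1.03 (SE 0.13, edgeR adjusted p = 0.011), and the call was lost without AhRf/f PBS1, AhRf/f PBS2 or Sftpc-Cre;AhRf/f PBS3, with an adjusted p of 0.058 at most. Por, the reductase that passes electrons to P450 enzymes, was at 422, 511 and 457 CPM against 340, 333 and 354 CPM, without a call (log2 fold change -0.44, edgeR adjusted p = 0.238). The median of the list was -0.10 (-0.21 to -0.036 over the alternatives), and 29 of its 42 members had a value below 0.

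Phase II enzymes and transporters, which conjugate and export compounds, also had 2 calls, both lower, among 30 tested members (0.102% of all genes tested). Gsta4, a glutathione transferase for lipid peroxidation products, was at 333, 331 and 297 CPM in AhRf/f cells and at 207, 226 and 206 CPM in Sftpc-Cre;AhRf/f cells. The groups were apart, with a log2 fold change of -0.59 (SE 0.080, edgeR adjusted p = 0.018). The call held without AhRf/f PBS3 or Sftpc-Cre;AhRf/f PBS2 and was lost without each of the other 4 libraries, with an adjusted p of up to 0.115. Gstp1, a further glutathione transferase, had 433, 494 and 395 CPM against 234, 264 and 250 CPM (log2 fold change -0.82, SE 0.12, edgeR adjusted p = 0.032), and its call was lost without any 1 library (adjusted p 0.052 to 0.163). Its transcript is 98.2% identical to Gstp2 and 97.6% to Gstp-ps, so reads may be split among them. Summed over these 3 genes, the level was 511 ± 58.5 CPM in AhRf/f cells and 289 ± 18.3 CPM in Sftpc-Cre;AhRf/f cells (SD, n = 3). In all, 26 of the 30 members had a log2 fold change below 0 and the median was -0.16 (-0.23 to -0.060 over the alternatives).

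Other enzymes were called lower outside these lists. Selenbp1, a selenium-binding methanethiol oxidase, was at 124, 163 and 124 CPM in AhRf/f cells and at 40.02, 38.5 and 44.1 CPM in Sftpc-Cre;AhRf/f cells, a 3.35-fold lower level (log2 fold change -1.74, SE 0.17, edgeR adjusted p = 0.0016). Xdh, the xanthine dehydrogenase that makes uric acid, had 149, 163 and 136 CPM against 59.5, 79.0 and 75.5 CPM. It was 2.10-fold lower without overlap (log2 fold change -1.07, SE 0.11, edgeR adjusted p = 0.0017). Cpox, an enzyme of heme synthesis, had 91.5, 94.5 and 94.8 CPM against 63.4, 66.7 and 70.7 CPM (log2 fold change -0.48, SE 0.062, edgeR adjusted p = 0.011). The Cpox call was kept only without Sftpc-Cre;AhRf/f PBS3 (adjusted p 0.021 to 0.069 over the 6 fits without 1 library).

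Retinoid metabolism held 2 calls among 21 tested genes, Rdh10 and the Adh7 given above, both lower (0.102% of all genes tested). Rdh10 (ENSMUSG00000025921, chromosome 1, 16105774 to 16133734) encodes the retinol dehydrogenase that makes retinaldehyde, the precursor of retinoic acid. It was the most abundant of the list, with 522, 676 and 665 CPM in AhRf/f cells against 257, 192 and 207 CPM in Sftpc-Cre;AhRf/f cells. Its lowest AhRf/f library was above its highest Sftpc-Cre;AhRf/f library, and it was 2.84-fold lower (log2 fold change -1.51, SE 0.15, edgeR adjusted p = 0.0016). The list median was -0.09 and ranged from -0.36 to -0.055 over the alternatives.

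Ptgs2, the inducible cyclooxygenase COX-2, was the only call among 18 tested genes of prostanoid synthesis and reception (0.150% of all genes tested). Its levels were 645, 452 and 562 CPM in AhRf/f cells against 298, 251 and 303 CPM in Sftpc-Cre;AhRf/f cells. The groups were apart, with a log2 fold change of -0.96 (SE 0.15, edgeR adjusted p = 0.041), and the call was kept only without AhRf/f PBS2 (adjusted p 0.026 to 0.178 over the fits without 1 library). Ptgs2os2, a noncoding RNA near Ptgs2 on the other strand that was singled out after its values were seen, had 32.6, 39.0 and 34.5 CPM against 18.3, 14.4 and 21.9 CPM (log2 fold change -0.96, edgeR adjusted p = 0.057). The median of the prostanoid list was -0.10, but its sign was not stable, with a range of -0.22 to 0.10 over the alternatives.

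NRF2 is a stress-responsive factor that turns on antioxidant genes. Of 25 such genes, all tested, Nqo1 alone was called, where 0.150% of all genes tested were. In 24 the log2 fold change was below 0, and in 13 the Sftpc-Cre;AhRf/f libraries lay below all AhRf/f libraries, against 7.38% of the genes tested. The median was -0.23 and ranged from -0.30 to -0.20 over the alternatives. The iron storage subunits Fth1 and Ftl1 were among the abundant members. Fth1 had 2781, 2522 and 2227 CPM against 1374, 1534 and 1771 CPM, and Ftl1 had 4706, 5330 and 4871 CPM against 4022, 4124 and 4072 CPM. Their groups did not overlap, and neither passed (log2 fold changes -0.69 and -0.29, edgeR adjusted p = 0.413 and 0.288). Several pseudogenes are nearly identical to Ftl1, so its level is uncertain. Under CRE the list median was -0.13, and 3 of 25 members lay below without overlap, where 11.0% of all genes did not overlap in either direction.

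Beyond the genes above, 6 lower genes kept their call in all 6 fits without 1 library, 4 of them protein-coding and 2 noncoding. Acp1 (ENSMUSG00000044573, chromosome 12, 30893326 to 30911589, minus strand), a low molecular weight tyrosine phosphatase, had the smallest adjusted p. Its levels were 82.6, 100 and 101 CPM in AhRf/f cells against 33.0, 37.3 and 38.8 CPM in Sftpc-Cre;AhRf/f cells. It was 2.60-fold lower (log2 fold change -1.38, SE 0.099, edgeR adjusted p = 4.9e-04). Arl6ip5, a membrane protein of the endoplasmic reticulum, was measured at 206, 247 and 231 CPM in AhRf/f cells and at 102, 114 and 104 CPM in Sftpc-Cre;AhRf/f cells. It was 2.14-fold lower without overlap (log2 fold change -1.10, SE 0.081, edgeR adjusted p = 4.9e-04). Dynlt1b, a dynein light chain, had 47.4, 56.8 and 57.0 CPM against 26.5, 25.8 and 22.7 CPM (log2 fold change -1.10, SE 0.095, edgeR adjusted p = 8.8e-04). Its transcript matches 4 other genes at 98.8% identity or more, and the 5 together summed to 143 ± 14.2 CPM in AhRf/f cells and 92.0 ± 9.26 CPM in Sftpc-Cre;AhRf/f cells (SD, n = 3). Gpc1, a heparan sulfate proteoglycan of the cell surface, had 94.3, 98.0 and 91.5 CPM against 62.2, 56.0 and 54.9 CPM. That gave a log2 fold change of -0.71 (SE 0.062, edgeR adjusted p = 8.8e-04).

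The 2 noncoding RNAs came next. 2610035D17Rik had 10.9, 10.6 and 9.19 CPM against 3.65, 4.23 and 4.76 CPM (log2 fold change -1.28, SE 0.15, edgeR adjusted p = 0.0052). C130046K22Rik, a processed transcript on chromosome 11, had 139, 63 and 130 counts in AhRf/f cells and none in the 3 Sftpc-Cre;AhRf/f libraries. Against a floor of 3 counts per library it was at least 38.7-fold lower (edgeR adjusted p = 0.0036), and 149 of its 780 exonic bases overlap Gosr2 on the other strand. The calls of the remaining lower genes were less stable. Arl4d, a small GTPase, was at 24.3, 24.6 and 23.9 CPM against 6.52, 10.4 and 8.68 CPM (log2 fold change -1.51, SE 0.23, edgeR adjusted p = 0.041), a call lost without any 1 library (adjusted p 0.062 to 0.166). Fam110c, a protein bound to centrosomes and microtubules, had 32.1, 28.9 and 32.1 CPM against 15.0, 20.5 and 17.6 CPM (log2 fold change -0.81, SE 0.12, edgeR adjusted p = 0.031) and was kept only without Sftpc-Cre;AhRf/f PBS2 (adjusted p 0.018 to 0.138). The pseudogene Gm9493 is described with the higher genes, since it is a copy of the same parent gene as Gm6472.

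Abca5, an ABC transporter linked to cholesterol handling in lysosomes, had the smallest adjusted p among the 10 higher genes. It stood at 9.43, 7.61 and 10.2 CPM in AhRf/f cells and at 29.1, 30.9 and 33.6 CPM in Sftpc-Cre;AhRf/f cells, 3.43-fold higher (log2 fold change 1.78, SE 0.14, edgeR adjusted p = 5.0e-04). Adi1, an enzyme of methionine salvage, had 59.2, 71.7 and 60.4 CPM against 114, 114 and 114 CPM (log2 fold change 0.84, SE 0.076, edgeR adjusted p = 9.4e-04). Ide, the insulin-degrading protease, had 219, 222 and 233 CPM against 331, 318 and 310 CPM (log2 fold change 0.51, SE 0.056, edgeR adjusted p = 0.0036). In these 3 genes the lowest Sftpc-Cre;AhRf/f library was above the highest AhRf/f library and the call held in all 6 fits without 1 library.

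The other higher calls were less stable. Serpinb2, an inhibitor of plasminogen activators, rose from 15.3, 10.8 and 14.4 CPM to 55.2, 31.7 and 50.9 CPM, a 3.41-fold difference (log2 fold change 1.77, SE 0.28, edgeR adjusted p = 0.041), and was kept only without Sftpc-Cre;AhRf/f PBS2 (adjusted p 0.024 to 0.213). Scel, a precursor of the cornified envelope, rose from 1.95, 2.26 and 2.34 CPM to 5.46, 4.89 and 5.90 CPM (log2 fold change 1.31, SE 0.20, edgeR adjusted p = 0.041). Car8, a carbonic anhydrase relative, had 42.9, 47.9 and 47.4 CPM against 72.4, 67.2 and 68.9 CPM (log2 fold change 0.59, SE 0.087, edgeR adjusted p = 0.032). Samhd1, which hydrolyzes deoxynucleotides, had 136, 133 and 133 CPM against 179, 194 and 174 CPM (log2 fold change 0.45, SE 0.071, edgeR adjusted p = 0.048). Groups did not overlap in any of them. Scel, Car8 and Samhd1 lost their calls whichever library was left out, with adjusted p-values of 0.078 to 0.213.

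In 4 further called genes the reads may be split with near copies, which are named for their sequence and not by their values. Gm6472 (log2 fold change 0.55, SE 0.066, edgeR adjusted p = 0.0070) and Gm9493 (-0.73, SE 0.098, 0.017) are pseudogenes whose transcripts match Rps7, a ribosomal protein gene, at 99.4% and 99.5% identity. Gm6472 was at 202, 210 and 197 CPM in AhRf/f cells against 286, 302 and 303 CPM in Sftpc-Cre;AhRf/f cells, Gm9493 at 20.5, 18.8 and 18.4 CPM and 12.3, 11.7 and 10.8 CPM, and Rps7 at 589, 592 and 574 CPM and 474, 457 and 454 CPM. The 3 together came to 807 ± 16.1 CPM and 770 ± 2.45 CPM (SD, n = 3). Gm6472 lost its call without AhRf/f PBS1 or PBS3 (adjusted p up to 0.058), and Gm9493 without any 1 library (0.052 to 0.106). Gm10184 rose from 5.202, 8.25 and 6.82 CPM to 21.01, 21.96 and 21.4 CPM (log2 fold change 1.67, SE 0.23, edgeR adjusted p = 0.020) and matches the nuclear import gene Kpna2 at 99.9% identity. With Kpna2 and a further copy the sums were 176 ± 22.2 CPM and 164 ± 11.5 CPM (SD, n = 3). The Gm10184 call held only without AhRf/f PBS2 (adjusted p 0.034 to 0.111). Gm28557 rose from 1.52, 1.11 and 1.04 CPM to 4.02, 4.17 and 7.42 CPM (log2 fold change 2.08, SE 0.31, edgeR adjusted p = 0.033) and shares 2537 of its 5072 exonic bases with Zfp708 on the same strand, which was at 3.56, 3.21 and 4.68 CPM against 0.25, 1.72 and 0.014 CPM. Summed with Zfp708 and Rslcan18, which share its exons, the level was 5.42 ± 0.98 CPM and 6.51 ± 1.61 CPM (SD, n = 3), with overlap. This call was lost without any 1 library (0.054 to 0.186).

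Autophagy was the process at the centre of the study. None of 44 tested core autophagy genes was called under PBS. Since only 0.150% of all genes tested were called, the absence of a call in 44 genes is near that share. Of the 44, 12 had an unadjusted edgeR p below 0.05, all of them lower. The median log2 fold change was -0.05 (-0.095 to -0.012 over the alternatives). Among all genes tested 8.37% had such a p, 4.60% lower and 3.76% higher. Sqstm1, the selective autophagy receptor p62, had 2266, 2542 and 2183 CPM in AhRf/f cells against 1831, 1847 and 2405 CPM in Sftpc-Cre;AhRf/f cells, with overlap. Gabarap, which builds the autophagosome membrane, had 448, 539 and 491 CPM against 401, 442 and 405 CPM (log2 fold change -0.25, edgeR adjusted p = 0.483), without overlap. The study also names autophagy-linked genes from its RNA-seq under CRE, of which Calcoco2 and Bcl2l11 belong to the 44. None of these RNA-seq genes was called under PBS. The study's own rule asks for an unadjusted limma p under 0.05 and a log2 fold change beyond 0.5 either way. Under PBS, Sh3bp4 and Prkd1 met that rule (limma log2 fold changes 0.53 and 0.55). Calcoco2, Fbxl2, Usp10, S100a9 and Bcl2l11 did not meet it. Sh3bp4 had 58.2, 64.9 and 87.9 CPM against 96.6, 104 and 100 CPM (log2 fold change 0.51, edgeR adjusted p = 0.490). Prkd1, a protein kinase, had 9.43, 11.8 and 10.9 CPM against 15.0, 16.6 and 15.4 CPM (log2 fold change 0.55, edgeR adjusted p = 0.376). Both were higher in every Sftpc-Cre;AhRf/f library. Calcoco2, Fbxl2, Usp10, S100a9 and Bcl2l11 had overlapping groups, with log2 fold changes of 0.35, 0.10, -0.13, -2.01 and -0.39. The sign turned without Sftpc-Cre;AhRf/f PBS1 for Fbxl2 (-0.20) and without Sftpc-Cre;AhRf/f PBS2 for Usp10 (0.043).

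The genes of the Trim5 cluster on chromosome 7, which encode antiviral ubiquitin ligases, differed between libraries of the same genotype. Trim12a (104299894 to 104315466) was at 23.1, 22.3 and 16.1 CPM in AhRf/f cells and at 0.15, 8.13 and 0 CPM in Sftpc-Cre;AhRf/f cells. Sftpc-Cre;AhRf/f PBS2 was thus between the AhRf/f libraries and the other Sftpc-Cre;AhRf/f libraries. The 3 Sftpc-Cre;AhRf/f CRE libraries showed the same order at 0, 9.41 and 0 CPM. Trim34a had 17.4, 18.0 and 14.9 CPM against 4.86, 11.6 and 4.71 CPM, Trim5 had 6.62, 4.03 and 3.72 CPM against 0.48, 2.02 and 0.58 CPM, and Trim30d had 5.16, 3.15 and 2.46 CPM against 0.076, 1.98 and 0 CPM. Trim34b was higher in each Sftpc-Cre;AhRf/f library, at 0.25, 1.38 and 0.49 CPM against 4.38, 2.58 and 3.84 CPM. In each of these 5 genes Sftpc-Cre;AhRf/f PBS2 was the library nearest to AhRf/f cells. None passed (edgeR adjusted p 0.229 to 0.814). All 5 met the study's rule under PBS. Their limma log2 fold changes were -5.91 for Trim12a, -1.37 for Trim34a, -2.44 for Trim5, -4.30 for Trim30d and 2.59 for Trim34b. None of the 11 tested members of the cluster was called, where 0.150% of all genes tested were. Their median was -0.63 (-0.95 to -0.044 over the alternatives). Trim34a and Trim34b are 98.7% identical over 1827 bases, and their sum was lower in every Sftpc-Cre;AhRf/f library, at 17.5 ± 1.97 CPM against 10.6 ± 3.06 CPM (SD, n = 3). In addition, Trim5 is similar to Trim12a and Trim12c, so reads may be split within both sets.

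The remaining pathway lists held 1 call, where 0.150% of all genes tested were called. Among 30 genes of surfactant lipid and cholesterol synthesis Abca5 was called, with a list median of -0.03. No call was made among 29 cytokines and chemokines (median -0.11), 28 interferon response genes (0.06), 22 cell cycle genes (0.34) and 23 genes of hypoxia and the PAS-domain partners of AhR (-0.07). Over the alternatives the cell cycle median stayed between 0.20 and 0.52 and the hypoxia median between -0.13 and -0.0070, and the medians of the surfactant lipid, cytokine and interferon lists changed sign. Ifit3, an interferon-induced gene, had 28.0, 33.7 and 22.4 CPM in AhRf/f cells against 73.3, 42.0 and 53.4 CPM in Sftpc-Cre;AhRf/f cells, without overlap and without a call (log2 fold change 1.00, edgeR adjusted p = 0.229). Of the 22 cell cycle genes 19 had a log2 fold change above 0. Their most abundant member, the cell cycle inhibitor Cdkn1a, was one of the 3 below 0 and had 1295, 1465 and 1347 CPM against 898, 945 and 1273 CPM (log2 fold change -0.40, edgeR adjusted p = 0.538).

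Markers of cell types were compared because the cultures could hold other cells, and in bulk RNA fewer cells of a type cannot be told apart from less RNA per cell. None of the 15 marker lists held a called gene, where 0.150% of all genes tested were called. The 16 AT2 markers, led by Sftpc, summed to 13075, 14381 and 12708 CPM in AhRf/f cells and to 7612, 10675 and 14081 CPM in Sftpc-Cre;AhRf/f cells, so the groups overlapped and Sftpc-Cre;AhRf/f PBS1 was lowest. The 13 AT1 markers summed to 6194, 8523 and 8284 CPM against 7231, 9588 and 8316 CPM, and the 14 transitional markers, led by Krt8, to 18081, 23360 and 22893 CPM against 20403, 19606 and 20613 CPM. Club cell markers, nearly all of it Scgb1a1, summed to 5041, 5822 and 8243 CPM against 8518, 5410 and 5243 CPM. All 15 ciliated cell markers had a log2 fold change above 0 (median 0.46), as did 49.9% of the genes tested, and their sum was 167, 176 and 224 CPM against 364, 224 and 228 CPM, highest in Sftpc-Cre;AhRf/f PBS1. Foxj1, the master gene of motile cilia, was the most abundant of them at 46.5, 43.0 and 64.0 CPM against 112, 56.1 and 67.1 CPM.

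Markers of blood cells and of alveolar macrophages varied with the library. The 11 neutrophil markers summed to 71.7, 73.2 and 21.5 CPM against 22.5, 27.5 and 8.98 CPM, with a log2 fold change below 0 in all 11 (median -1.44) and overlapping groups. The defining marker S100a9 was at 13.0, 16.3 and 1.92 CPM against 1.74, 5.62 and 0.38 CPM. Alveolar macrophage markers summed to 228, 95.2 and 82.1 CPM against 186, 87.4 and 82.3 CPM, with the libraries numbered 1 highest in both genotypes. Of 6 erythroid markers only Hba-a1 and Hba-a2 were tested, at sums of 2.20 to 3.58 CPM, and of 6 basal cell markers Trp63 and Dsg3 were too low to test. Medians were 0.12 for 12 endothelial, 0.0068 for 12 fibroblast, -0.25 for 8 smooth muscle and pericyte, 0.15 for 5 mesothelial, -0.03 for 14 leukocyte, -0.16 for 14 alveolar macrophage, -0.34 for 4 basal, -0.58 for 2 erythroid, -0.14 for 10 club cell, 0.09 for 13 AT1, -0.03 for 14 transitional, -0.24 for 16 AT2 and -0.12 for 5 sex-linked markers. Over the alternatives the sign held for AT2 (-0.48 to -0.076), ciliated cell (0.12 to 0.67) and neutrophil markers (-1.67 to -0.35), and it changed under 1 or more alternatives in the other 12 lists, with the widest range for leukocyte markers (-1.03 to 1.89). Without both PBS libraries numbered 1, a fit added after seeing the data, 14 genes were called, 13 of them from the 31. This fit leaves out the highest leukocyte levels but keeps the highest neutrophil sum, 73.2 CPM in AhRf/f PBS2. The part of these markers in the differences between genotypes was not tested.

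**Figure D4:**
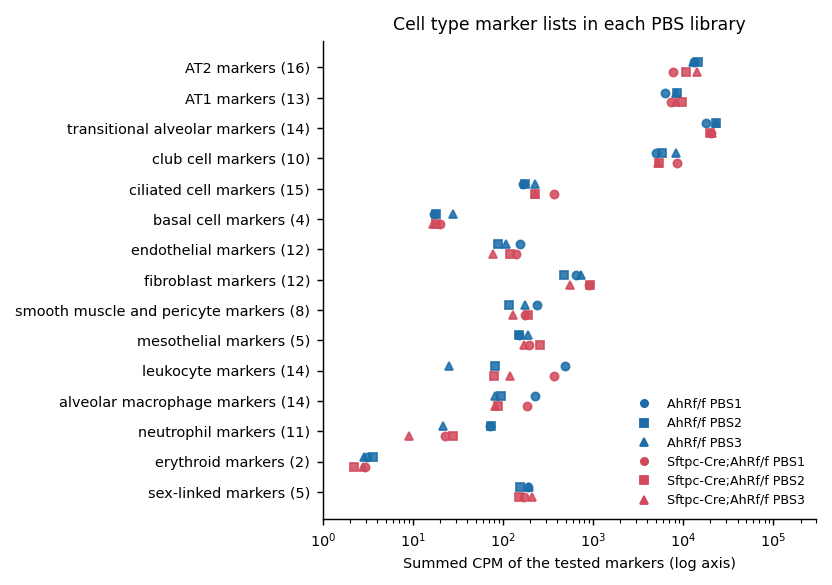
Summed CPM (log axis) of the tested markers of 15 lists in each PBS library, with the number of tested markers in brackets, AhRf/f in blue and Sftpc-Cre;AhRf/f in red. The groups overlap in all 15 lists, and the libraries numbered 1 (circles) are highest for leukocyte and alveolar macrophage markers.

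The genotype difference was measured again in the 6 CRE libraries. The groups compared share no library with those under PBS, but both sets of calls use the 1 estimate of spread per gene that was made over all 12 libraries. Whether they came from the same cell preparations is not stated, and same-numbered PBS and CRE libraries of a genotype deviated together (correlations 0.337 to 0.727). The shared calls and directions given next may therefore be partly a repeat reading of the same preparations. Under CRE 35 genes (0.170% of those tested) were called, and 25 genes were called in both, 80.6% of the PBS calls and 71.4% of the CRE calls, with the same direction in all 25. Of the 31 genes called under PBS, 30 had the same direction under CRE without overlap between genotypes, against 11.0% of all genes tested in either direction. Cyp1b1 had 349, 465 and 460 CPM in AhRf/f cells against 63.9, 33.8 and 43.7 CPM in Sftpc-Cre;AhRf/f cells with CRE, and its log2 fold changes were -3.10 (SE 0.27) under PBS and -3.17 (SE 0.27) under CRE. For Ces1g the values were -2.73 (SE 0.24) and -2.43 (SE 0.24), for Abca5 1.78 (SE 0.14) and 1.52 (SE 0.14), and for Ptgs2 -0.96 (SE 0.15) and -1.15 (SE 0.15). The exception was Gm28557, at 1.84, 1.29 and 1.49 CPM against 1.18, 1.503 and 1.85 CPM under CRE, a log2 fold change of -0.03 (SE 0.30). Gm9493, Gsta4, Fam110c, Gstp1 and Serpinb2 kept their direction but were not called under CRE (edgeR adjusted p 0.134 to 0.771). No gene passed the interaction test of edgeR (smallest adjusted p 0.135, with an unadjusted p below 0.05 in 763 genes, among them Gm28557, Gm9493 and Gm6472 of the 31), so no difference between treatments in the genotype effect passed with 3 libraries a group.

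**Figure D5:**
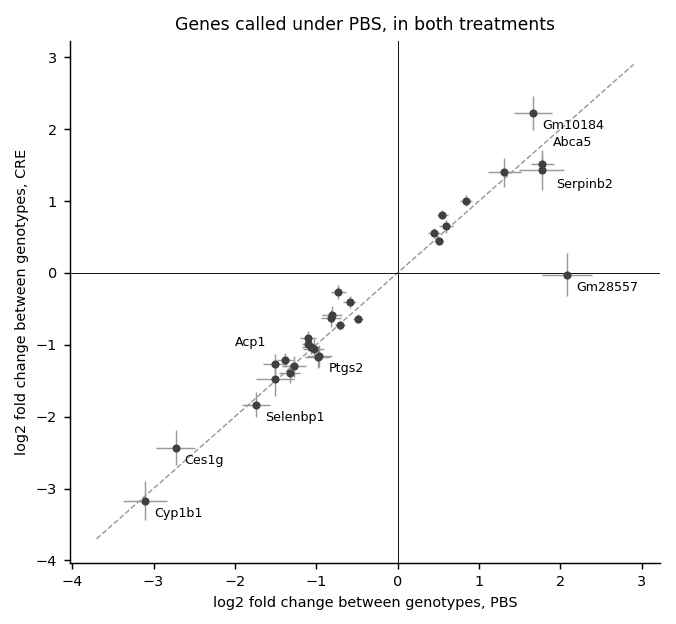
Log2 fold change between genotypes under CRE against that under PBS for 30 genes called under PBS, with bars of 1 SE and a dashed line of equal values; C130046K22Rik is left out because it had no count in Sftpc-Cre;AhRf/f cells. All points but Gm28557 lie in the quadrants of equal sign, and Gm9493 (-0.73 under PBS, -0.26 under CRE) and Gm10184 (1.67 and 2.23) lie off the line.

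The called genes were spread over 15 chromosomes. On chromosome 12, which carries Ahr, Adi1, Acp1 and Fam110c lay within 2.41 Mb, between 28675231 and 31080251, and 4.42 to 6.82 Mb from Ahr. The window was drawn around these 3 genes, so their share of its 9 tested genes was fixed by that choice. Of the other 6 the lowest edgeR adjusted p was 0.066, in Tmem18 (log2 fold change -0.53). Chromosomes 1, 11 and 17 carried 4 called genes each. On chromosome 11 these were Arl4d, C130046K22Rik, Abca5 and 2610035D17Rik, over 11.5 Mb with 132 tested genes. This window was also drawn around the called genes.

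The study's rule, which asks for an unadjusted limma p under 0.05 and a log2 fold change beyond 0.5 either way, was met by 846 genes (4.10%), 483 higher (2.34%) and 363 lower (1.76%). This balance turned without Sftpc-Cre;AhRf/f PBS1, where 348 were higher and 413 lower. It took in 29 of the 31 edgeR calls and left out Cpox and Samhd1, whose changes were below the fold limit. With adjusted in place of unadjusted p it was met by 33 genes. Of the 31 edgeR calls, 15 held in all 6 fits that left out 1 library. These were Acp1, Arl6ip5, Abca5, Dynlt1b, Cyp1b1, Gpc1, Ces1g, Adi1, Selenbp1, Rdh10, Nqo1, Xdh, Ide, C130046K22Rik and 2610035D17Rik. With the replicate block within each treatment, 5 of these 15 lost their call: Selenbp1 (edgeR adjusted p = 0.0580), Rdh10 (0.0656), Ide (0.106), 2610035D17Rik (0.127) and C130046K22Rik (0.361). Without AhRf/f PBS1, AhRf/f PBS3 or Sftpc-Cre;AhRf/f PBS1 the number of calls was 15, 18 and 19.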

How the data were processed

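RNA-seq was done on 12 libraries of mouse AT2 cells (TruSeq stranded mRNA), of which the 6 PBS libraries were compared here. Per the methods, the authors aligned reads to GRCm38 with STAR 2.7.2b and quantified them in Partek and with Salmon. The authors deposited raw whole-number counts per gene for 55450 genes, all of whose identifiers are in GENCODE M21, and FPKM (counts scaled to transcript length and library total) beside them. The methods name RefSeq as the annotation, which leaves the annotation behind the counts unsettled, and the strand setting of the counting is not given in the sources used here.

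Counts were tested as deposited. Genes were kept with edgeR's filterByExpr (minimum count 10), scaled by TMM (factors 0.969 to 1.03), and fitted by edgeR's quasi-likelihood test (edgeR 4.0.16, R 4.3.3) with 4 group means over 12 libraries, leaving 8 residual degrees of freedom. P-values were adjusted over 20612 genes by Benjamini-Hochberg at 0.05. The study's rule was run with limma 3.58.1 on log2 CPM (prior count 2). Ahr was also tested by an exact permutation test. FPKM were used with a pseudocount of 1 in an alternative. Alternatives comprised other scalings, filters and tools (DESeq2 1.42.0, limma-voom), the PBS libraries alone, replicate blocks and leaving out each library. Leaving out both libraries numbered 1 was added after seeing the data. The CRE libraries entered the filter and the estimate of the spread. The fit counts the 12 libraries as independent. Same-numbered PBS and CRE libraries of a genotype deviated together (correlations 0.337 to 0.727). The 8 degrees of freedom may therefore be too many and the p-values too small. No fit modelled the replicate number within a genotype.

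Same-numbered libraries of the genotypes deviated together under PBS (correlations 0.383, 0.130 and 0.120 over 11476 genes), so blocked values are given. The labels state no source of the pairing, and libraries with different numbers reached 0.206. Every pair of libraries in a group differed by more than counting noise, so none was taken for 1 library deposited again, which does not tell separate mice from repeat preparations. Floors cover counting error only.

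Genes named included all those called and the members of the AhR target list. Autophagy-linked genes that the study names from its RNA-seq and leading members of the other lists were added. The genes compared and the lists were chosen with earlier results of these data known. The test was checked on simulated data. Promoters came from RefSeq (GRCm38), and transcripts were matched with BLAST 2.17.0 (95% identity over 300 bases).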

Additional observations from a re-analysis of the deposited data

How the results depend on the processing

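The count of genes called between genotypes was 31, and between 24 and 46 with other scalings, filters, limma-voom, limma-trend and limma on FPKM. It was 15 in the 6 PBS libraries alone (9 of the 31, with Nqo1, Gpc1, Xdh and Ide among those lost), 14 without both PBS libraries numbered 1 (13 of the 31), 234 with DESeq2 and 15 to 26 without 1 library. With a replicate block it was 0 within the 6 PBS libraries (1470 genes at an unadjusted p below 0.05), 15 within each treatment and 71 with 1 number term. In the 6-library block the smallest edgeR adjusted p was 0.0796. The DESeq2 and 1-term calls held all 31 genes. The study's rule gave 846 genes, 1310 without a filter, 530 with a filter of 1 CPM and 33 with adjusted p, and 761 to 1000 without 1 library, with more lower than higher genes without Sftpc-Cre;AhRf/f PBS1 (413 against 348). The Ahr difference of 0.04 ranged from -0.032 to 0.12 without 1 library and was -0.050 without both libraries numbered 1. Signs also turned in overlapping genes. Without 1 library Ugt1a6b ranged from -0.72 to 0.23, Ugt1a7c from -0.32 to 0.069, Fbxl2 from -0.20 to 0.26 and Usp10 from -0.32 to 0.043. Without both libraries numbered 1 Ugt1a6b was at 0.078, Ugt1a7c at 0.17 and Fbxl2 at -0.28, and with limma-voom Ugt1a6b was at 0.0037. None of the 31 called genes changed sign under any of the 19 alternatives. Of 493 list medians under alternatives, 13 moved by over 1 SD between replicates and 56 changed sign, most often those of leukocyte and alveolar macrophage markers (8 each). The cause of these changes was not tested.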

Other observations

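A further 26 genes had an edgeR adjusted p between 0.05 and 0.1, of which 18 were lower and 8 higher in Sftpc-Cre;AhRf/f cells. The genes named here were chosen after their values were seen. Padi2, an enzyme that turns arginine to citrulline in proteins, was at 62.2, 72.9 and 83.1 CPM in AhRf/f cells and at 25.1, 14.1 and 14.3 CPM in Sftpc-Cre;AhRf/f cells (log2 fold change -2.03, SE 0.34, edgeR adjusted p = 0.061). Mal, a membrane protein of apical transport, was at 757, 898 and 907 CPM against 449, 452 and 546 CPM. Its log2 fold change was -0.82. Fig4, a phosphoinositide phosphatase, had 69.8, 92.5 and 86.1 CPM against 43.4, 53.9 and 45.2 CPM, and Cldnd1, on chromosome 16 near Cpox, had 121, 141 and 121 CPM against 63.9, 69.6 and 71.6 CPM.

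Among the genes that were higher in this range, Il18r1, a subunit of the interleukin 18 receptor, was at 109, 110 and 132 CPM against 197, 176 and 177 CPM (log2 fold change 0.65). Tgm2, the tissue transglutaminase, had 160, 154 and 172 CPM against 222, 241 and 202 CPM, a log2 fold change of 0.45. None of these 6 genes had overlapping groups, against 14.0% of all genes tested without overlap. They were picked by their small p-values in these same libraries, so this separation adds no support. None passed the threshold in edgeR. With limma-trend, Padi2 alone of the 6 passed (adjusted p = 0.031). Under CRE the log2 fold changes were -2.03 for Padi2, -0.73 for Mal, -0.38 for Fig4, -0.88 for Cldnd1, 0.62 for Il18r1 and 0.43 for Tgm2. Again none of the 6 passed (edgeR adjusted p 0.0568 to 0.754). Lpar4 and Efcab7, which were in the same range under PBS and are not described here, did pass under CRE (edgeR adjusted p = 0.0156 and 0.0236).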
